A study of Homo sapiens with 9 samples.

Results

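The genes described are those of the somatostatin system: the receptors SSTR1, SSTR2, SSTR3, SSTR4 and SSTR5 and the ligand genes SST and CORT. Members were the rows of the deposited expression table that carry one of these 7 symbols. Of the 25084 genes in the table, 3 were found this way: SSTR2, SST and CORT. The other 4 receptors are not analysed here. SSTR2 drew attention to the family because its level stood high after the siRNA against HAND2, so every value of the members in that group is given as a description, without a test.

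The cells were LAN5, an established human neuroblastoma line with amplified MYCN, which encodes a transcription factor of the MYC family. They were nucleofected (electroporated) with a small interfering RNA (siRNA), kept in serum-containing growth medium, and harvested at 72 h for sequencing of total RNA. The 3 groups of 3 libraries received a control siRNA (siCTR), an siRNA to MYCN (siMYCN) or an siRNA to HAND2 (siHAND2), HAND2 being a transcription factor of the sympathetic lineage. The titles give 1 numbered siRNA name for each target, so other effects of that siRNA cannot be told apart from loss of its target. All libraries thus came from 1 line, which limits how far the groups stand for neuroblastoma, and the labels do not say whether replicates were separate cultures, so p-values measure the spread between these libraries only.

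Somatostatin is a peptide hormone and neurotransmitter that is cut from the product of SST, and cortistatin is its close relative, cut from the product of CORT. Both peptides bind the somatostatin receptors, which are G protein-coupled receptors. The receptors act mainly through inhibitory Gi and Go proteins, which lower cyclic AMP (cAMP), open inwardly rectifying potassium channels and restrain voltage-gated calcium channels, and they also engage tyrosine phosphatases. SSTR2 is found on many neuroendocrine tumours and on neuroblastoma cells, where radiolabelled somatostatin analogues that bind it are used for imaging and therapy.

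Values are CPM, the reads of a gene brought to a common library total. The step between low values put the reads assigned to genes at 21.1 to 32.7 M per library. The targeted transcripts followed the labels. MYCN stood at 70.0% of its siCTR mean in siMYCN, and HAND2 at 54.2% in siHAND2. MYCN was also at 49.6% of its siCTR mean in siHAND2, so the siHAND2 group carried less of both transcripts, and HAND2 was at 114% in siMYCN. Libraries of the same group correlated with a Pearson's r of 0.994 to 0.998 on log2(CPM + 1), across the 11201 genes averaging 5 CPM or more. All 10 sympathetic and neuronal markers examined passed the filter on low values (1 CPM in 3 libraries or more), and their summed level was 2748 to 2928 CPM under the control siRNA, 3549 to 3667 CPM after siMYCN and 2871 to 3031 CPM after siHAND2. In siMYCN 9 of the 10 were called higher than in siCTR (limma, adjusted p under 0.05) and none lower. Of all genes tested, 24.5% were called higher and 11.4% lower in siMYCN. In siHAND2 the neuronal genes STMN2, TUBB3 and GAP43 rose (3 genes) while TH, DBH and DDC, which encode enzymes of catecholamine synthesis, fell (3 genes). There 18.1% of all genes tested were called higher and 11.8% lower.

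SSTR2, the receptor, was the only member expressed above 2 CPM in any library. The gene lies on chromosome 17 from 73165010 to 73176633, plus strand (GRCh38), and its canonical transcript has 2 exons and 7685 bases. It measured 16.5, 15.0 and 18.5 CPM in siCTR replicates 1, 2 and 3. In siMYCN it measured 23.5, 18.6 and 23.7 CPM, and in siHAND2 97.1, 84.4 and 88.2 CPM. Each siHAND2 library therefore lay far above all 6 others, while the siMYCN libraries lay close above those of siCTR. The group means were 16.7 ± 1.72, 21.9 ± 2.90 and 89.9 ± 6.52 CPM for siCTR, siMYCN and siHAND2 (SD, n = 3 libraries each).

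**Figure D1:**
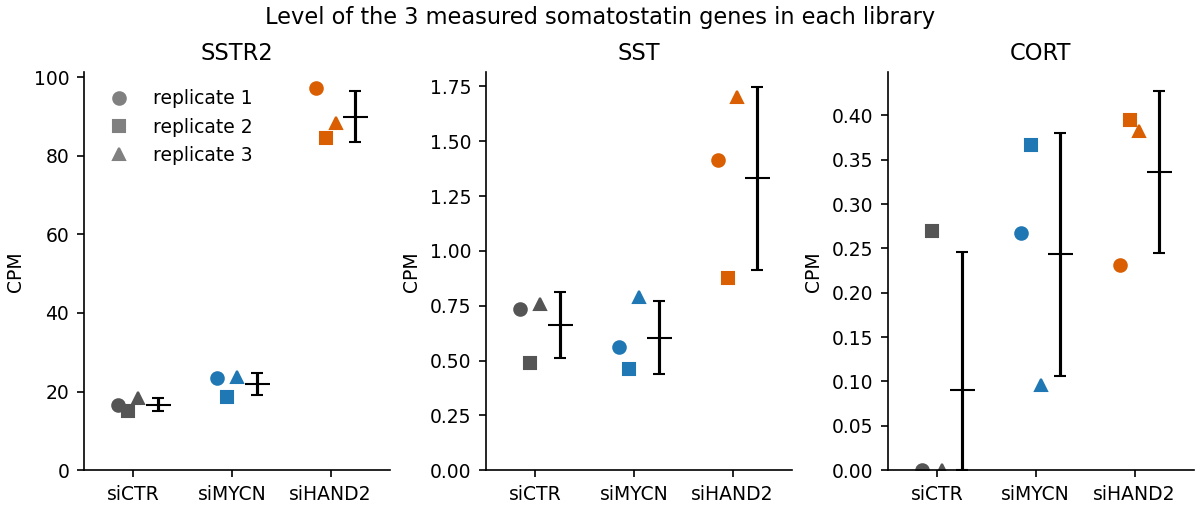
CPM of SSTR2, SST and CORT in each of the 9 libraries, with symbols for replicate numbers and the mean ± SD of each group (n = 3 libraries). SSTR2 lies between 84.4 and 97.1 CPM in siHAND2 and between 15.0 and 23.7 CPM in the other groups, whereas SST does not exceed 1.70 CPM and CORT does not exceed 0.394 CPM.

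The comparison of siMYCN with siCTR, which did not enter the choice of SSTR2 except through the siCTR libraries, asked whether lowering MYCN went with another level of the receptor. SSTR2 rose by 0.37 on the log2(CPM + 1) scale (standard error 0.09, limma, Benjamini-Hochberg adjusted p = 0.00363 over all genes tested), a ratio of means of 1.32. All 3 siMYCN libraries were above all 3 siCTR libraries, but by a narrow margin: the lowest siMYCN library had 18.60 CPM and the highest siCTR library 18.46 CPM. The ratio between single libraries ran from 1.01 to 1.58. In 22.9% of all rows of the table the 3 siMYCN libraries likewise lay above all 3 siCTR libraries. A rise of this kind was common in these data, since 35.9% of the 14495 genes tested were called in this comparison and 24.5% were called higher. The call of SSTR2 is thus one of many, and its size was modest beside its value in siHAND2.

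In siHAND2 the level of SSTR2 was 5.39 times the siCTR mean, a difference of 2.37 on the log2(CPM + 1) scale, and 4.10 times the siMYCN mean, a difference of 1.99. Any siHAND2 library exceeded any siCTR library 4.57-fold to 6.47-fold, and any siMYCN library 3.56-fold to 5.22-fold. The 3 siHAND2 libraries lay above all 3 siCTR libraries in 20.0% of all rows of the table, and above all 3 siMYCN libraries in 13.9%. Of all genes tested, 29.9% were called in siHAND2 against siCTR and 26.9% in siHAND2 against siMYCN. Because SSTR2 was picked from the siHAND2 values, nothing is read from these shares. The siCTR libraries are common to the siMYCN and siHAND2 comparisons, and the differences of SSTR2 in them, 0.37 and 2.37, are therefore not independent of each other.

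The depth behind SSTR2 was ample. The siCTR values corresponded to about 541, 401 and 389 reads. Those of siMYCN corresponded to about 584, 485 and 693 reads and those of siHAND2 to about 2954, 2120 and 2491 reads. Counting error alone would give a coefficient of variation of at most 5.07% in siCTR, 4.54% in siMYCN and 2.17% in siHAND2. The observed coefficients were 10.3%, 13.2% and 7.25%, so replicates differed by more than counting. The residual SD of SSTR2 was at the 84.8th percentile of the genes tested, which makes it one of the more variable transcripts between replicates. These counting errors do not cover duplicated PCR reads.

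Levels were next set per kilobase of transcript, the scale on which genes can be ranked. On this scale SSTR2 had 2.17 ± 0.224 CPM per kb under siCTR, 2.86 ± 0.378 under siMYCN and 11.7 ± 0.849 under siHAND2 (SD, n = 3 libraries). Among 12892 tested genes with a known transcript length, this level was at percentile 21.4 in siCTR, 24.8 in siMYCN and 61.9 in siHAND2. The receptor therefore ranked low among expressed genes in siCTR and above the middle in siHAND2. These ranks rest on the canonical transcript length of each gene, and which transcript forms LAN5 cells use was not examined. A second gene model, AC097641.1, overlaps SSTR2 on the same strand (chromosome 17, 73164977 to 73196593). It held at most 0.309 CPM in any library. Its means were 0.0342 ± 0.0591, 0.0329 ± 0.0289 and 0.187 ± 0.109 CPM in siCTR, siMYCN and siHAND2 (SD, n = 3 libraries). It was thus highest in siHAND2 too, but near the limit of measurement. How the counting shared reads between the 2 gene models is not stated.

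SST, the precursor gene of somatostatin, lies on chromosome 3 from 187668912 to 187670394 on the minus strand and was near the limit of measurement. The siCTR libraries gave 0.734, 0.487 and 0.759 CPM. Those of siMYCN gave 0.564, 0.460 and 0.788 CPM, and those of siHAND2 gave 1.41, 0.876 and 1.70 CPM. These values stand for 24, 13 and 16 reads, 14, 12 and 23 reads, and 43, 22 and 48 reads. The siCTR and siMYCN libraries overlapped, and the siHAND2 libraries all lay above them. Only 2 libraries reached 1 CPM, so SST did not pass the filter on low values and was not in the fit across genes.

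SST averaged 0.660 ± 0.151 CPM under siCTR, 0.604 ± 0.168 CPM under siMYCN and 1.33 ± 0.419 CPM under siHAND2 (SD, n = 3 libraries). The difference between siMYCN and siCTR was -0.05 on the log2(CPM + 1) scale (two-sided exact permutation p = 0.8, where 0.1 is the smallest p that 3 against 3 libraries can give). No difference was detectable at this depth. In siHAND2 the mean was 2.02 times that in siCTR and 2.20 times that in siMYCN, or 0.48 and 0.53 on the log2(CPM + 1) scale, values that understate the change of such a low gene. Of all rows of the table, 20.0% had 3 siHAND2 libraries above all 3 siCTR libraries and 13.9% had them above all 3 siMYCN libraries. Per kilobase, SST stood at 1.09 ± 0.248, 0.995 ± 0.276 and 2.19 ± 0.689 CPM per kb in siCTR, siMYCN and siHAND2, each below SSTR2 in the same group.

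CORT, the precursor gene of cortistatin, lies on chromosome 1 from 10450031 to 10451998 on the plus strand and was lower still. It was listed at 0 in siCTR replicates 1 and 3 and at 0.270 CPM in replicate 2. In siMYCN it measured 0.268, 0.367 and 0.0957 CPM and in siHAND2 0.231, 0.394 and 0.383 CPM. Replicate 2 of siCTR thus lay within the range of both other groups. The values stand for at most 10.8 reads in any library, and a count of 0 allows up to 0.0917 CPM in siCTR replicate 1 and 0.142 CPM in siCTR replicate 3 (3 reads, counting error only).

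CORT averaged 0.0901 ± 0.156 CPM under siCTR, 0.243 ± 0.137 CPM under siMYCN and 0.336 ± 0.0911 CPM under siHAND2 (SD, n = 3 libraries), and it did not pass the filter. The difference of siMYCN from siCTR was 0.19 on the log2(CPM + 1) scale (two-sided exact permutation p = 0.3), not detectable at this depth. CORT overlaps the readthrough gene CENPS-CORT (chromosome 1, 10430102 to 10452153), which held 0.416 to 1.16 CPM, more than CORT itself. How the counting shared reads between them is not stated, so the values of CORT are uncertain. Of the 3 members measured, SSTR2 alone could be followed with precision.

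The promoters of SSTR2 and SST are shown because the knockdowns were of transcription factors that bind E-boxes and because the SST promoter holds the cAMP response element (CRE), bound by CREB1, through which cAMP drives the gene. The 250 bases before each gene's start, from RefSeq (GRCh38.p14), were searched on both strands for the E-box CANNTG, its MYC form CACGTG, the CRE TGACGTCA and the core TGACGT, which lies within the CRE. Each sequence is written 5′ to 3′ on the strand of its gene, and capitals mark the motifs found.
SSTR2: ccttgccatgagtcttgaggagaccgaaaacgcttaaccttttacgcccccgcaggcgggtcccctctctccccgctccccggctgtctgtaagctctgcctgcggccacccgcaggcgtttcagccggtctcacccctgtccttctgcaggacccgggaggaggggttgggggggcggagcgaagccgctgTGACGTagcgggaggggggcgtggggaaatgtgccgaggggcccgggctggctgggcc
SST: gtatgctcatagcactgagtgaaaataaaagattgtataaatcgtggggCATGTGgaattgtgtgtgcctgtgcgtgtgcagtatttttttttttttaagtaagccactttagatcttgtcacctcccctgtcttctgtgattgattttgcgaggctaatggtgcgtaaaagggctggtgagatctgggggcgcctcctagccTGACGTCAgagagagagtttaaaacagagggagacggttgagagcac
The window of SSTR2 is chr17:73164760-73165009, plus strand, with a GC content of 69.2%, and that of SST is chr3:187670395-187670644, minus strand, with a GC content of 45.6%. SSTR2 has the core TGACGT from 58 to 53 bases before the start and no E-box letters in this window. SST has the full CRE from 47 to 40 bases before the start and the E-box CATGTG from 201 to 196 bases before it. Of 27305 promoter windows of the same length, 62.2% hold CANNTG, 6.49% CACGTG, 1.77% TGACGTCA and 7.42% TGACGT. These letters describe the windows and say nothing of binding in LAN5 cells.

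The tested genes next to SSTR2 showed no difference of its size. Of 10 other genes whose start lies within 500 kb of the start of SSTR2, 4 passed the filter. COG1, a subunit of a Golgi tethering complex, starts 27.6 kb away and rose by 0.20 in siMYCN (adjusted p = 0.00551) and by 0.17 in siHAND2 (adjusted p = 0.0171), the latter call being lost without siCTR replicate 2 or 3 or siHAND2 replicate 2 and after median-ratio rescaling, in which each library is scaled by its median ratio to the others. FAM104A, 42.3 kb away, rose by 0.21 (adjusted p = 0.00289) and 0.19 (adjusted p = 0.00654), and C17orf80, 67.2 kb away, by 0.20 (adjusted p = 0.00281) and 0.18 (adjusted p = 0.00678). CDC42EP4, which encodes an effector of the GTPase CDC42, starts 118.6 kb away and rose by 0.24 in siMYCN (adjusted p = 0.00536), with 0.10 in siHAND2 (adjusted p = 0.234). The differences of all 4 in siHAND2 were at most 0.19, against 2.37 for SSTR2. Small rises were common, as 24.5% of all genes tested were called higher in siMYCN and 18.1% in siHAND2. The median difference over all genes tested was 0.06 in siMYCN and 0.04 in siHAND2. Nothing particular to this region is therefore read from these calls. The 6 genes that were not tested held 0.949 CPM or less in every library, among them AC097641.1, whose means are given above.

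**Figure D2:**
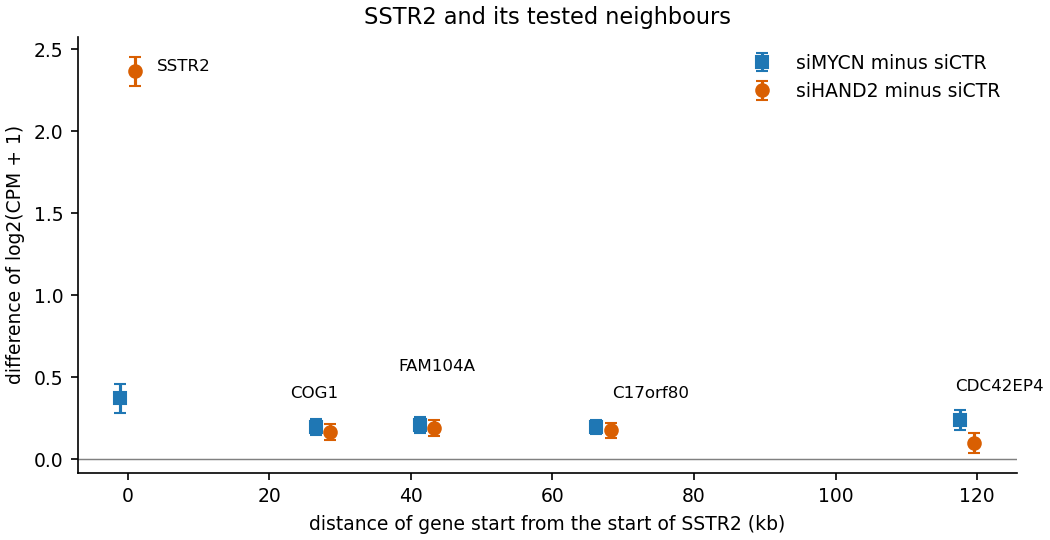
Difference of log2(CPM + 1) from siCTR, with the standard error from limma, for SSTR2 and the 4 tested genes that start within 500 kb of it, plotted against the distance between starts in kb, with the points of a gene set slightly apart to be legible. The 4 neighbours lie between 0.10 and 0.24 in both comparisons, and SSTR2 lies at 0.37 in siMYCN and 2.37 in siHAND2.

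The genes whose profile was most like that of SSTR2 were ranked by Pearson's r of log2(CPM + 1) over the 9 libraries, among 11201 genes averaging 5 CPM or more. They were BTBD3 (r = 0.994), SATB1 (0.992), COL12A1 (0.992), VCAN (0.992) and GDF11 (0.992). The r is a description, since the 9 libraries fall into 3 groups and a gene that is high in siHAND2 alone obtains a high value. SATB1 encodes a chromatin organiser, COL12A1 a fibril-associated collagen, VCAN the matrix proteoglycan versican and GDF11 a ligand of the TGF-beta family. The means in siCTR, siMYCN and siHAND2 were 96.5, 103 and 168 CPM for BTBD3 and 213, 228 and 297 CPM for SATB1. They were 2.40, 3.24 and 15.9 CPM for COL12A1, 870.2, 964 and 1859 CPM for VCAN, and 27.5, 30.3 and 43.0 CPM for GDF11. COL12A1 came nearest to SSTR2 in size, with 2.31 in siHAND2 on the log2(CPM + 1) scale, and the other 4 were between 0.48 and 1.09.

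**Figure D3:**
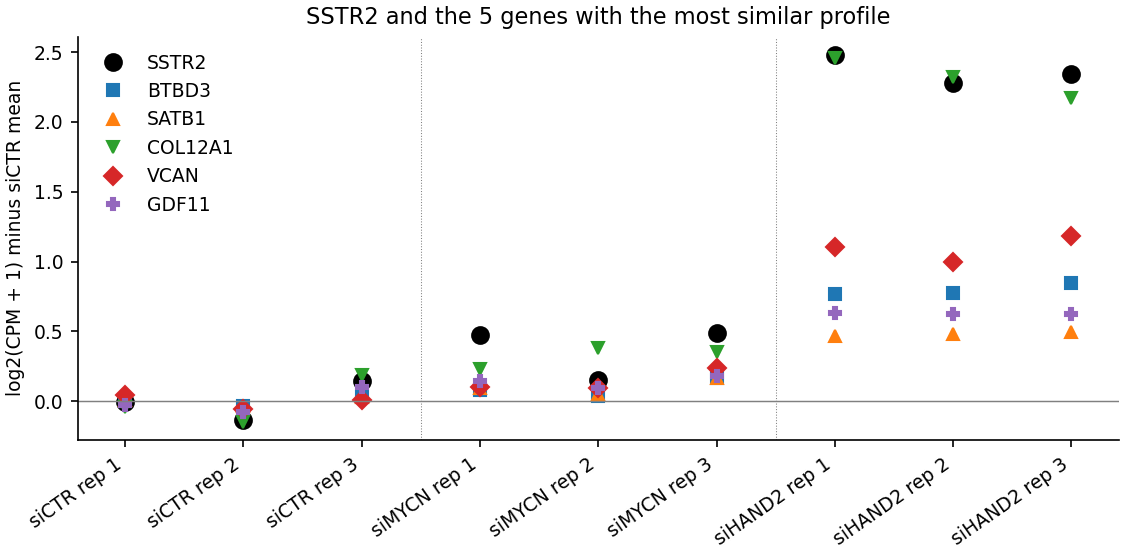
Log2(CPM + 1) of SSTR2 and of the 5 genes with the highest Pearson's r to it, each minus its mean in siCTR, in the 9 libraries. All 6 genes lie highest in the 3 siHAND2 libraries, with SSTR2 and COL12A1 above 2 there and the other 4 genes lower.

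Since 2 of these profiles belong to matrix genes, markers of other cell types were read beside SSTR2. The summed CPM of 9 fibroblast and mesenchymal markers was 295 to 299 under siCTR, 354 to 357 under siMYCN and 628 to 712 under siHAND2, in the same order as SSTR2. PDGFRA, PDGFRB and THY1 had the highest means of the 9 in every group and weigh most in this sum. PDGFRB averaged 89.8, 98.8 and 179 CPM and was not called in siMYCN (limma, adjusted p = 0.0913). ACTA2 was called in neither siMYCN (adjusted p = 0.947) nor siHAND2 (adjusted p = 0.150). Of the 8 that passed the filter, 6 rose and none fell in siMYCN, where 24.5% of all genes tested were called higher and 11.4% lower. In siHAND2 6 rose and 1 (THY1) fell, where 18.1% of all genes were called higher and 11.8% lower. DCN is in both counts of 6, although it passed the filter only through the groups in which it was high. Its calls are therefore not read as support. The fall of THY1 was lost with no intensity trend, without siCTR replicate 2 or 3 and without siHAND2 replicate 2 or 3. DCN, a proteoglycan gene, averaged 0.431, 1.30 and 11.0 CPM in the 3 groups, COL1A2 1.66, 4.42 and 15.9 CPM, and COL3A1 1.42, 4.19 and 3.84 CPM. LUM, a matrix proteoglycan gene, averaged 9.15, 17.2 and 54.7 CPM, and PDGFRA, a growth factor receptor gene, 121, 144 and 341 CPM. COL1A1, another fibroblast collagen, stayed under 1 CPM in every library and was not tested. Its means went the other way, at 0.720 ± 0.207, 0.507 ± 0.159 and 0.363 ± 0.142 CPM in siCTR, siMYCN and siHAND2 (SD, n = 3 libraries). Among the sympathetic markers DBH, at 263 ± 18.2 CPM in siCTR and 130.1 ± 5.65 CPM in siHAND2 (-1.01, adjusted p = 6.84e-10), and TH (-0.70, adjusted p = 0.000174) were low where SSTR2 was high, and STMN2 (0.95, adjusted p = 1.81e-09) was high. None of the Schwann cell (5 in the table), endothelial (6) or immune markers (4) passed the filter, and their sums were at most 3.34, 1.52 and 0.964 CPM. The part of these marker changes in the level of SSTR2 was not tested, and more cells of a type cannot be told apart from more RNA per cell in bulk samples.

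The receptors nearest in family to the somatostatin receptors, such as the opioid, galanin and melanin-concentrating hormone receptors, were examined for a like pattern. Of 13 listed, 6 were in the table and 4 passed the filter. In siMYCN 2 were called higher (OPRD1 and MCHR1) and none lower, but MCHR1 passed the filter only through that group. The call of MCHR1, and its part in the median below, are therefore no support for a rise. In siHAND2 none rose and 2 fell. Of all genes tested, 24.5% were called higher in siMYCN and 11.8% lower in siHAND2. The siMYCN count was 1 without siCTR replicate 2 or 3 and 0 without any one of the 3 siMYCN libraries. This count stayed at 2 under only 4 of the 9 other settings. The median difference of the 4 was 0.11 in siMYCN and -0.34 in siHAND2, against 0.06 and 0.04 over all genes tested. OPRD1, the delta opioid receptor gene, averaged 45.0 ± 2.80 CPM in siCTR and fell to 31.6 ± 3.09 CPM in siHAND2 (-0.50, adjusted p = 3.17e-05). Its rise to 51.0 ± 2.09 CPM in siMYCN (0.18, adjusted p = 0.0478) was lost under 4 of the 9 other settings, among them both rescalings tried (median-ratio and quantile). It was also lost without siCTR replicate 2 or 3 or any one of the siMYCN libraries. OPRL1, the nociceptin receptor gene, fell in siHAND2 from 5.42 ± 0.0763 to 3.36 ± 0.472 CPM (-0.57, adjusted p = 0.000517). MCHR1, a melanin-concentrating hormone receptor gene, averaged 0.570 ± 0.0992 CPM in siCTR, 1.38 ± 0.266 CPM in siMYCN and 0.613 ± 0.111 CPM in siHAND2. It reached 1 CPM in the siMYCN libraries alone, the group where it was high, for which reason no adjusted p is given for it. KISS1R, the kisspeptin receptor gene, differed by -0.13 (adjusted p = 0.415) and -0.19 (adjusted p = 0.224). OPRL1, MCHR1 and KISS1R averaged under 5 CPM and were named after their values were seen.

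Per kilobase of canonical transcript, with the same limit as above, SSTR2 was not the most abundant of these receptors in control cells. OPRD1 stood at 4.83 CPM per kb in siCTR, 5.47 in siMYCN and 3.39 in siHAND2. KISS1R stood at 2.64, 2.35 and 2.23, OPRL1 at 1.59, 1.65 and 0.987, and MCHR1 at 0.269, 0.650 and 0.290 CPM per kb. SSTR2 was thus below OPRD1 in siCTR and siMYCN, and at 11.7 CPM per kb above all 4 in siHAND2. In siCTR the order of SSTR2 and KISS1R is not settled, as their levels of 2.17 and 2.64 CPM per kb came with a spread of 0.224 and 0.452.

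**Figure D4:**
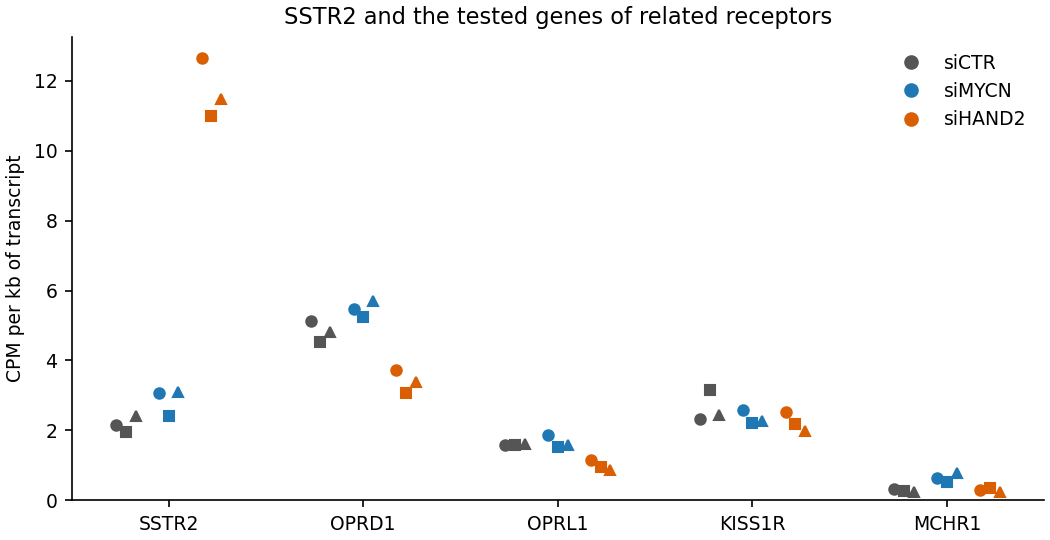
Level per kilobase of transcript (CPM per kb, linear axis) of SSTR2 and the 4 related receptor genes that passed the filter, with a point for each library coloured by group. SSTR2 is the highest of the 5 in siHAND2 at 11.7 CPM per kb and lies below OPRD1 in siCTR and siMYCN.

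The genes of somatostatin signalling and processing, together with the related receptors above and other neuropeptide systems, were then counted, from 8 lists that hold 123 genes, of which 96 were in the table and 77 passed the filter. Differences are on the log2(CPM + 1) scale against siCTR. In siMYCN 35 of the 77 rose, 5 fell (INPP5D, RGS10, RGS16, FLNA and NLN) and 37 did not pass the test, with a median difference of 0.14 against 0.06 over all genes tested. With the replicate number as a block, 8 fell in siMYCN, as many as without siHAND2 replicate 3. Under the 9 other settings the number that fell in siMYCN ran from 4 to 11. The 35 include MCHR1, which passed the filter only through the siMYCN group and is no support for a rise. In siHAND2 17 rose, 17 fell and 43 did not pass, with a median of 0.03 against 0.04. The share that passed was 51.9% in siMYCN and 44.2% in siHAND2, against 35.9% and 29.9% of all genes tested. Of all genes tested, 24.5% were called higher and 11.4% lower in siMYCN, and 18.1% and 11.8% in siHAND2. These shares are the background for the counts of each list below, where calls were common among all genes too. The balance of rises and falls moved with scaling: in siMYCN the 77 genes split 29 to 10 after median-ratio rescaling and 29 to 11 after quantile normalization. Over all genes the split of 3556 higher and 1653 lower became 2443 to 2333 and 2337 to 2392. In siHAND2 all genes went from 2630 higher and 1709 lower to 2001 and 2250 after median-ratio rescaling and to 1984 and 2162 after quantile normalization.

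**Figure D5:**
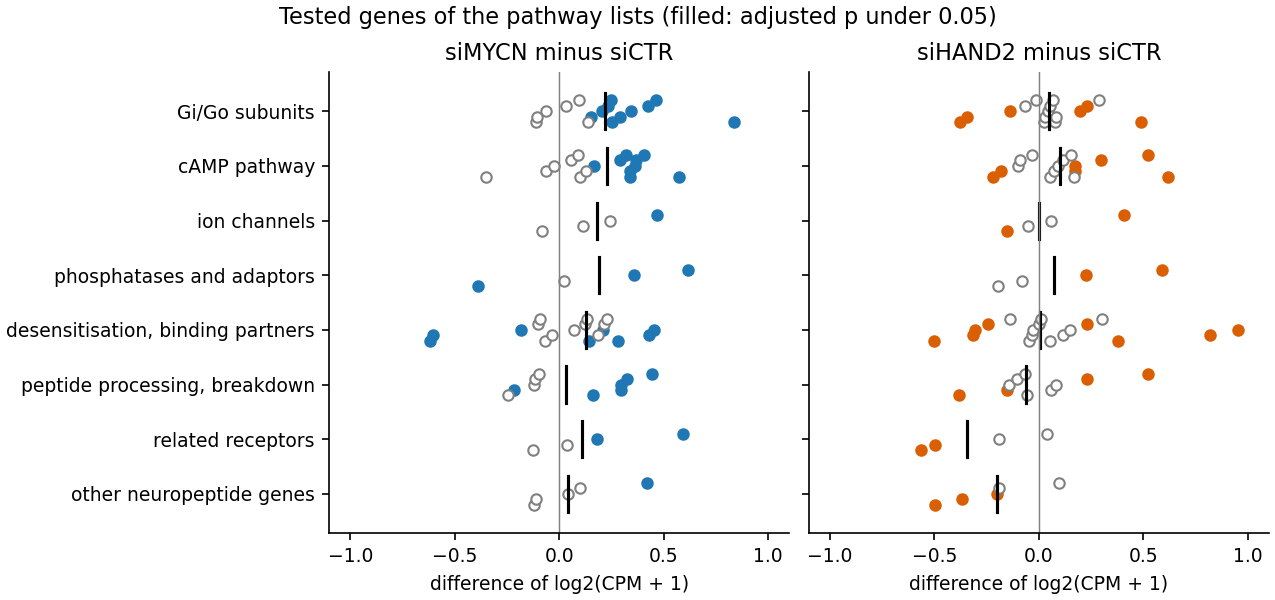
Difference of log2(CPM + 1) from siCTR for the 77 tested genes of the 8 lists, one point per gene, in siMYCN (left) and siHAND2 (right), with filled points for an adjusted p under 0.05 in limma. In siMYCN 35 filled points lie to the right of 0 and 5 to the left, and in siHAND2 17 lie on each side.

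The Gi and Go protein subunits pass the receptor's signal to its effectors. Of 16 tested, 62.5% passed the test in siMYCN and 37.5% in siHAND2, against 35.9% and 29.9% of all genes tested. In siMYCN 10 rose and none fell. However, 2 fell after either rescaling, where 9 rose, and 1 fell with the block or without siHAND2 replicate 3. None fell under only 5 of the 9 other settings. In siHAND2 GNAI2, GNG3 and GNG10 rose (3 genes) and GNB4, GNG5 and GNG12 fell (3 genes). GNG2, a gamma subunit, rose from 498 ± 17.3 to 688 ± 20.9 CPM in siMYCN (0.46, adjusted p = 5e-07) and averaged 494 ± 10.6 CPM in siHAND2. GNB5, a beta subunit, rose from 18.0 ± 0.629 to 24.5 ± 0.224 CPM in siMYCN (0.43, adjusted p = 3e-05). In siHAND2 the gamma subunit GNG5 fell from 45.6 ± 2.24 to 34.8 ± 1.08 CPM (-0.38, adjusted p = 7.99e-05) and GNG12 from 27.2 ± 0.801 to 21.3 ± 1.93 CPM (-0.35, adjusted p = 0.00115).

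The cAMP pathway, which the receptors inhibit, had 16 genes tested, of which 9 rose and none fell in siMYCN (1 fell with the block), and 5 rose (ADCY1, ADCY5, PRKAR1A, PDE4D and CREB1) and 2 fell (ADCY3 and PRKAR2A) in siHAND2. Adenylyl cyclases make cAMP, and ADCY5 rose in both, from 10.4 ± 0.553 to 15.9 ± 1.34 CPM in siMYCN (0.57, adjusted p = 3.93e-05) and to 16.5 ± 1.32 CPM in siHAND2 (0.62, adjusted p = 1.87e-05). ADCY1 rose from 102 ± 0.744 CPM to 132 ± 7.44 CPM (0.37, adjusted p = 2.76e-05) and 148 ± 8.02 CPM (0.52, adjusted p = 5.47e-07). ADCY6 rose in siMYCN (0.41, adjusted p = 5.92e-05), and its 0.15 in siHAND2 had an adjusted p of 0.06, or 0.0188 with the replicate number as a block. PRKAR1B, a regulatory subunit of the cAMP-dependent kinase, rose in siMYCN (0.36, adjusted p = 0.00239), and its 0.17 in siHAND2 had an adjusted p of 0.127, or 0.0115 with the block.

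Among the ion channels that receive the signal, 4 were tested, all but 1 of them calcium channel subunits, with 1 higher (2 without siMYCN replicate 2 or siHAND2 replicate 3) and none lower in siMYCN, and 1 higher and 1 lower in siHAND2. CACNA1D rose in siMYCN from 6.47 ± 0.712 to 9.37 ± 1.42 CPM (0.47, adjusted p = 0.00321). CACNA1C rose in siHAND2 from 15.7 ± 1.00 to 21.1 ± 1.31 CPM (0.41, adjusted p = 0.000388). CACNA1B fell in siHAND2 from 77.3 ± 2.04 to 69.6 ± 4.30 CPM (-0.15, adjusted p = 0.0282), a call lost with no intensity trend and without any one of the 3 siCTR libraries or siHAND2 replicate 2 or 3. In siMYCN CACNA1B differed by 0.11 (adjusted p = 0.0815, or 0.041 with the block). KCNJ9, a potassium channel subunit, passed in neither.

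The phosphatase list, with the kinases and adaptors linked to it, had 4 genes tested, of which 2 rose and 1 fell in siMYCN, and 2 rose and none fell in siHAND2 (1 fell after either rescaling and without siHAND2 replicate 1). The tyrosine kinase gene SRC rose from 44.0 ± 1.06 CPM to 68.1 ± 3.53 CPM in siMYCN (0.62, adjusted p = 7.72e-07) and 51.6 ± 3.80 CPM in siHAND2 (0.22, adjusted p = 0.00731). PIK3R1, the regulatory subunit of PI3 kinase, rose from 48.7 ± 2.71 to 62.6 ± 1.44 CPM (0.36, adjusted p = 3.43e-05) and 73.6 ± 1.60 CPM (0.59, adjusted p = 1.43e-07). INPP5D, an inositol phosphatase gene, fell in siMYCN from 9.82 ± 0.697 to 7.24 ± 0.180 CPM (-0.39, adjusted p = 0.00145).

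Receptor kinases, arrestins, RGS proteins and binding partners end or shape the signal. Of 18 tested, 5 rose (GRK3, GRK6, RGS2, RGS7 and SHANK2) and 3 fell (RGS10, RGS16 and FLNA) in siMYCN, with 3 rises after either rescaling and without siMYCN replicate 1, and 2 without siMYCN replicate 3 or with no filter. In siHAND2 4 rose (RGS2, RGS16, SHANK1 and SHANK2) and 4 fell (ARRB1, RGS4, RGS5 and RGS10), with 2 rises after quantile normalization, with no filter and without siCTR replicate 3 or siHAND2 replicate 2. The RGS genes, whose products switch G proteins off, went in different directions. RGS2 rose in both, from 16.3 ± 0.482 to 22.2 ± 1.40 CPM (0.43, adjusted p = 0.000102) and 32.4 ± 2.20 CPM (0.95, adjusted p = 1.55e-08). RGS4 fell in siHAND2 from 1397 ± 79.7 to 988 ± 84.9 CPM (-0.50, adjusted p = 5.1e-06) and RGS5 from 493 ± 20.5 to 396 ± 35.5 CPM (-0.32, adjusted p = 0.000425). RGS10 fell in siMYCN from 18.6 ± 1.02 to 11.9 ± 0.598 CPM (-0.60, adjusted p = 1.68e-05) and in siHAND2 to 15.5 ± 1.54 CPM (-0.25, adjusted p = 0.0231), the second call being lost without siCTR replicate 2 or 3 or siHAND2 replicate 1 or 2. RGS16, under the 5 CPM mean and named after its values were seen, fell in siMYCN from 2.82 ± 0.223 to 1.49 ± 0.265 CPM (-0.62, adjusted p = 0.000413). In siHAND2 it rose to 5.74 ± 0.526 CPM (0.82, adjusted p = 3.34e-05), and siHAND2 exceeded siMYCN by 1.44 (adjusted p = 4.28e-08).

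Peptide precursors such as prosomatostatin are cut by convertases and trimmed by carboxypeptidases. Of 10 such processing and breakdown genes tested, 5 rose (PCSK7, FURIN, CPE, PCSK1N and ECE1) and 1 fell (NLN) in siMYCN, and 2 rose (CPE and PCSK7) and 2 fell (PCSK6 and NLN) in siHAND2. After rescaling, 4 rose in siMYCN and 3 or 4 fell, and 2 fell with the block. The number that fell in siMYCN stayed at 1 under only 5 of the 9 other settings. Without siCTR replicate 3 the rises in siMYCN were 3, and without siHAND2 replicate 3 the falls were 3. The 2 falls in siHAND2 became 0 without siCTR replicate 1 and 1 without siCTR replicate 2 or siHAND2 replicate 1 or 2. CPE, carboxypeptidase E, rose in siHAND2 from 112 ± 3.20 to 162 ± 16.8 CPM (0.52, adjusted p = 4.93e-06). Its siMYCN call (0.16, adjusted p = 0.0409) was lost under 4 of the 9 other settings, among them both rescalings, and without any one of the siCTR or siMYCN libraries. The convertase PCSK7 rose in both, by 0.30 (adjusted p = 0.000773) and 0.23 (adjusted p = 0.00591). PCSK1N, a convertase inhibitor, rose in siMYCN from 24.2 ± 1.42 to 33.3 ± 1.14 CPM (0.44, adjusted p = 0.000515). The convertase FURIN rose in siMYCN by 0.32 (adjusted p = 0.00953), a call lost without siCTR replicate 3.

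Other neuropeptide systems had 5 genes tested of 24 listed, with 1 higher and none lower in siMYCN and none higher and 3 lower in siHAND2. VIP, whose peptide raises cAMP, rose in siMYCN from 857 ± 38.3 to 1148 ± 57.4 CPM (0.42, adjusted p = 5.97e-06) and fell in siHAND2 to 746 ± 26.2 CPM (-0.20, adjusted p = 0.00488). ADCYAP1, which encodes the related peptide PACAP, fell in siHAND2 from 53.4 ± 2.58 to 41.1 ± 2.14 CPM (-0.37, adjusted p = 5.61e-05). Its receptor gene ADCYAP1R1 fell in siHAND2 from 44.4 ± 1.34 to 31.1 ± 0.413 CPM (-0.50, adjusted p = 1.69e-06). The 3 neuropeptide genes lower in siHAND2 were thus VIP, ADCYAP1 and ADCYAP1R1, in the group where SSTR2 was high.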

How the data were processed

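Total RNA of 9 LAN5 libraries (3 each of siCTR, siMYCN and siHAND2) was sequenced by the authors, who deposited 1 table of CPM values for the series. The submitters' processing notes name STAR 2.5.1, Partek, hg19 and GRCh37. Gene positions in the table matched GRCh38 instead (of 18215 symbols found in a GRCh38 gene list, 91.4% started within 5000 bp), so positions are given as GRCh38. The annotation, the counting rule and its use of strand are not given in the sources used here. Each column summed to 1000002.4 to 1000002.6, with 0.0001 in place of 0.

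Depth was read from the step between low values. Since 79.4% to 80.9% of the values up to 20 steps were whole multiples (tolerance 0.02), no count model was used. Genes reaching 1 CPM in 3 libraries or more (14495, with 10589 left out) were fitted in limma 3.58.1 (R 4.3.3) on log2(CPM + 1), with 1 mean per group, an intensity trend, two-sided tests and Benjamini-Hochberg adjustment at 0.05. The script was tested on simulated data. SST and CORT were tested with exact permutation (scipy 1.17.1). Transcript lengths came from the canonical transcripts of a GRCh37 annotation, by symbol, and promoters from RefSeq, in which all 7 members had an entry.

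The members and gene lists were chosen with earlier results of these data known. Named genes were the members, the tested neighbours of SSTR2, the 5 most similar profiles and, from each list, up to 4 of the largest called changes among genes averaging 5 CPM; genes making up a count of 5 or fewer are also named, after their values were seen. Alternatives were other pseudocounts, filters and scalings, fits of 2 groups, no trend, a replicate block and each library left out; those for the marker lists were chosen after seeing the data. Replicate numbers come from the titles. The deviations of same-numbered libraries from their group means correlated at 0.208, 0.102 and 0.215 between siMYCN and siCTR and at 0.154, 0.121 and 0.266 between siHAND2 and siCTR, over the 11201 genes averaging 5 CPM or more. Between siHAND2 and siMYCN the values were 0.434, -0.129 and 0.245.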

Additional observations from a re-analysis of the deposited data

How the results depend on the processing

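The rise of SSTR2 in siMYCN remained past the threshold under each of 9 other settings, from 0.29 to 0.39 on the log2 scale (limma, adjusted p up to 0.0264), and in the 9 fits that left out 1 library, from 0.30 to 0.48 (adjusted p up to 0.0257). With the replicate number as a block it was 0.37 (adjusted p = 6.08e-05), and the calls over all genes numbered 5895 for siMYCN and 5089 for siHAND2, each against siCTR, and 4689 for siHAND2 against siMYCN. Besides the changes given with the block in the text, the block called SATB1 and GDF11 in siMYCN and changed no other call of a named gene. The difference of SST between siMYCN and siCTR went from -0.13 to 0.015 when 1 library was left out, turning positive without siMYCN replicate 2, and from -0.12 to -0.01 otherwise. That of CORT went from 0.12 to 0.31 and from 0.04 to 1.06, the pseudocount moving it most. Differences that had not passed the test and changed sign were, in siHAND2, GNG2 (0.038 after quantile normalization, -0.043 to 0.0012 with 1 library left out), GNB5 (-0.014 and -0.021 after median-ratio and quantile scaling, -0.0032 to 0.041 with 1 left out), CACNA1D (-0.0050 after quantile normalization, -0.014 to 0.13 with 1 left out) and FURIN (-0.027 to 0.14 with 1 left out). In siMYCN they were RGS4 (0.14) and RGS5 (0.0080) after quantile normalization and ADCYAP1 (-0.014 and -0.0085) after median-ratio and quantile scaling. The cause was not tested. Depth limits SST and CORT, at 12 to 48 and 0 to 10.8 reads a library.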
